A study of Rattus norvegicus with 60 samples.

Results

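The genes described here are 10 transcripts used to recognise plasma cells, the antibody-secreting end stage of the B cell lineage: Prdm1, Irf4, Xbp1, Jchain, Mzb1, Tnfrsf17, Sdc1, Derl3, Fkbp11 and Sec11c. They were chosen by symbol, and each had exactly 1 of the array's 36685 probe sets annotated with that single symbol, out of 18166 genes so represented. The animals were 20 rats, all with haemophilia A, the inherited lack of coagulation factor VIII. In 11 of them (K1 to K11) a bleed was induced in the left knee, and their right knee served as the contralateral side, while 9 other rats (C1 to C9) had a sham procedure and gave their right knee. Tissue from inside the knee and the popliteal lymph node of the same side were taken 24 h later, giving 11 bled, 11 contralateral and 7 sham knees, and 11 bled-side, 11 contralateral and 9 sham nodes. RNA of 2 sham knees was too scarce to be hybridised. No animal without haemophilia A was included, the bled side was always the left and the sham side always the right, so side cannot be told apart from the bleed. The labels and design text used here state no strain, age or sex.

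In a plasma cell the repressor Blimp-1, encoded by Prdm1, shuts down the B cell program, the factor IRF4 sustains the switch, and XBP1 enlarges the endoplasmic reticulum so that immunoglobulin can be folded and exported in bulk. XBP1 is also a general arm of the unfolded protein response, and it and several genes of the secretory machinery are used by any cell that secretes heavily. Among the proteins that mark or serve plasma cells, the J chain links IgM and IgA into polymers, MZB1 is a chaperone of immunoglobulin in the endoplasmic reticulum, TNFRSF17 (BCMA) is a survival receptor, and SDC1 (CD138) is a heparan sulfate proteoglycan that epithelial cells carry as well. DERL3 takes part in the export of misfolded proteins from the endoplasmic reticulum, FKBP11 is a prolyl isomerase of that compartment, and SEC11C is a catalytic subunit of the signal peptidase that trims new secretory proteins. A lymph node normally holds plasma cells in its medulla, whereas a healthy synovium holds few. All these are bulk samples, in which more cells of a type and more RNA per cell cannot be told apart.

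The promoters of 9 of the 10 genes, from RefSeq on rat build GRCr8 (250 bases before to 50 after the gene's start), were searched on both strands for 3 motifs known from the unfolded protein response: the endoplasmic reticulum stress element ERSE (CCAAT, 9 bases of any kind, then CCACG), the related ERSE-II (ATTGGNCCACG) and the core ACGTG. Mzb1 had no entry. ERSE was present in 2 of 9 promoters, those of Xbp1 and Derl3, and in 22 of 33469 promoters of the whole table (0.0657%). The core ACGTG, which is read on both strands of the palindrome it forms here with a preceding C, was present in Derl3 and Sec11c and in 19.3% of all promoters. ERSE-II was found in none of the 9 and in 0.0508% of all. The 3 promoters with a match are shown, with the matched bases in capitals. Their genes rose in the bled knee and in the nodes of bled rats. So did Prdm1, Jchain, Sdc1 and Fkbp11, whose promoters held none of the 3 motifs. The promoter stretch printed for Xbp1 spans chr14:84604373-84604672 on the plus strand. That of Derl3 spans chr20:12766416-12766715 on the minus strand, and that of Sec11c chr18:61590655-61590954 on the plus strand.
Xbp1: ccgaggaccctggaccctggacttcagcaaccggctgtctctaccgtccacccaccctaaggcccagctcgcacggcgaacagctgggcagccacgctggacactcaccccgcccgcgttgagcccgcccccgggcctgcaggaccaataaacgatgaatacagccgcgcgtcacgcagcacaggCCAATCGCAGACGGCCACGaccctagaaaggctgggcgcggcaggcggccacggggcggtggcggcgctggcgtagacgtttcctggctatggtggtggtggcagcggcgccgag
Derl3: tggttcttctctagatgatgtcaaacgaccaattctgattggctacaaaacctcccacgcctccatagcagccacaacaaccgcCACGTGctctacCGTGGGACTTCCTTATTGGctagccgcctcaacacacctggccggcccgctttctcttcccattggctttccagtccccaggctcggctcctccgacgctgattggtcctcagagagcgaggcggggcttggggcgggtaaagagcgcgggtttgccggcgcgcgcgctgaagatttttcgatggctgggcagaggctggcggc
Sec11c: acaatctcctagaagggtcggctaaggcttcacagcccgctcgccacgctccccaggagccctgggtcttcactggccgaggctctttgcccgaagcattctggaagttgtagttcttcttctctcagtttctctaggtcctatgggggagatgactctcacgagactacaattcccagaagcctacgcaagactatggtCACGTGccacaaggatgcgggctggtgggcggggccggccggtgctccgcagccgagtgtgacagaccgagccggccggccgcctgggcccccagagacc
In Xbp1 the ERSE begins 65 bases before the start on the gene's own strand. In Derl3 the ERSE runs on the opposite strand, and its CCACG end lies 154 bases before the start, close to the ACGTG core. These matches describe letters, and no binding was measured.

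All values are log2 expression values made by robust multi-array averaging (RMA), so a difference of 1 is a 2-fold difference in signal, and the level of a probe set was compared only with itself across samples. Differences were tested with limma over all 36685 probe sets, and a gene is said to have risen or fallen at a Benjamini-Hochberg adjusted p under 0.05. Over all 60 arrays the values ran from 1.62 to 14.03, and the array medians from 5.64 to 5.94.

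The resting levels came first, from the sham rats. Node exceeded knee for 7 of the 10 genes (Jchain, Mzb1, Irf4, Derl3, Prdm1, Sec11c and Tnfrsf17) and knee exceeded node for 3 (Xbp1, Sdc1 and Fkbp11), against a background of 28.3% of all probe sets higher and 24.3% lower in node. Jchain ranged from 11.44 to 12.17 (median 11.87) in the 9 sham nodes and from 4.12 to 6.25 (median 4.80) in the 7 sham knees. The 2 ranges were far apart, and the difference was 6.92 ± 0.33 (SE) on the log2 scale, or 121-fold (adjusted p = 1.18e-26). Mzb1 averaged 8.45 ± 0.20 (SD, n = 9) in sham nodes and 5.69 ± 0.28 (n = 7) in sham knees, a difference of 2.76 ± 0.20 (SE). Irf4 differed by 2.02 ± 0.12, Derl3 by 1.37 ± 0.17, Prdm1 by 0.80 ± 0.17, Sec11c by 0.70 ± 0.11 and Tnfrsf17 by 0.57 ± 0.19. For Xbp1, Sdc1 and Fkbp11 the node was lower by 0.66 ± 0.13, 0.57 ± 0.15 and 0.40 ± 0.16 on the log2 scale. The Fkbp11 call was lost without any of 5 arrays (sham nodes C2, C3 and C5, sham knees C2 and C7), with adjusted p up to 0.0896. In the knee Tnfrsf17 lay below the array's median in 29 of 29 arrays. Mzb1 did so in 9 of 11 bled, 10 of 11 contralateral and 5 of 7 sham knees. Jchain was below it in 8 of 11 contralateral and 6 of 7 sham knees, and in 0 of 11 bled knees. For Prdm1 this held in 5 of 11, 4 of 7 and 0 of 11 in that order. Tnfrsf17 was dim in the nodes as well, below the array's median in 7 of 11 bled-side, 9 of 11 contralateral and 9 of 9 sham nodes. The tissues matched their labels: 17 B cell identity genes averaged 10.74 in sham nodes and 6.86 in sham knees, and 14 fibroblast and synovial lining genes 8.59 and 11.54.

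**Figure D1:**
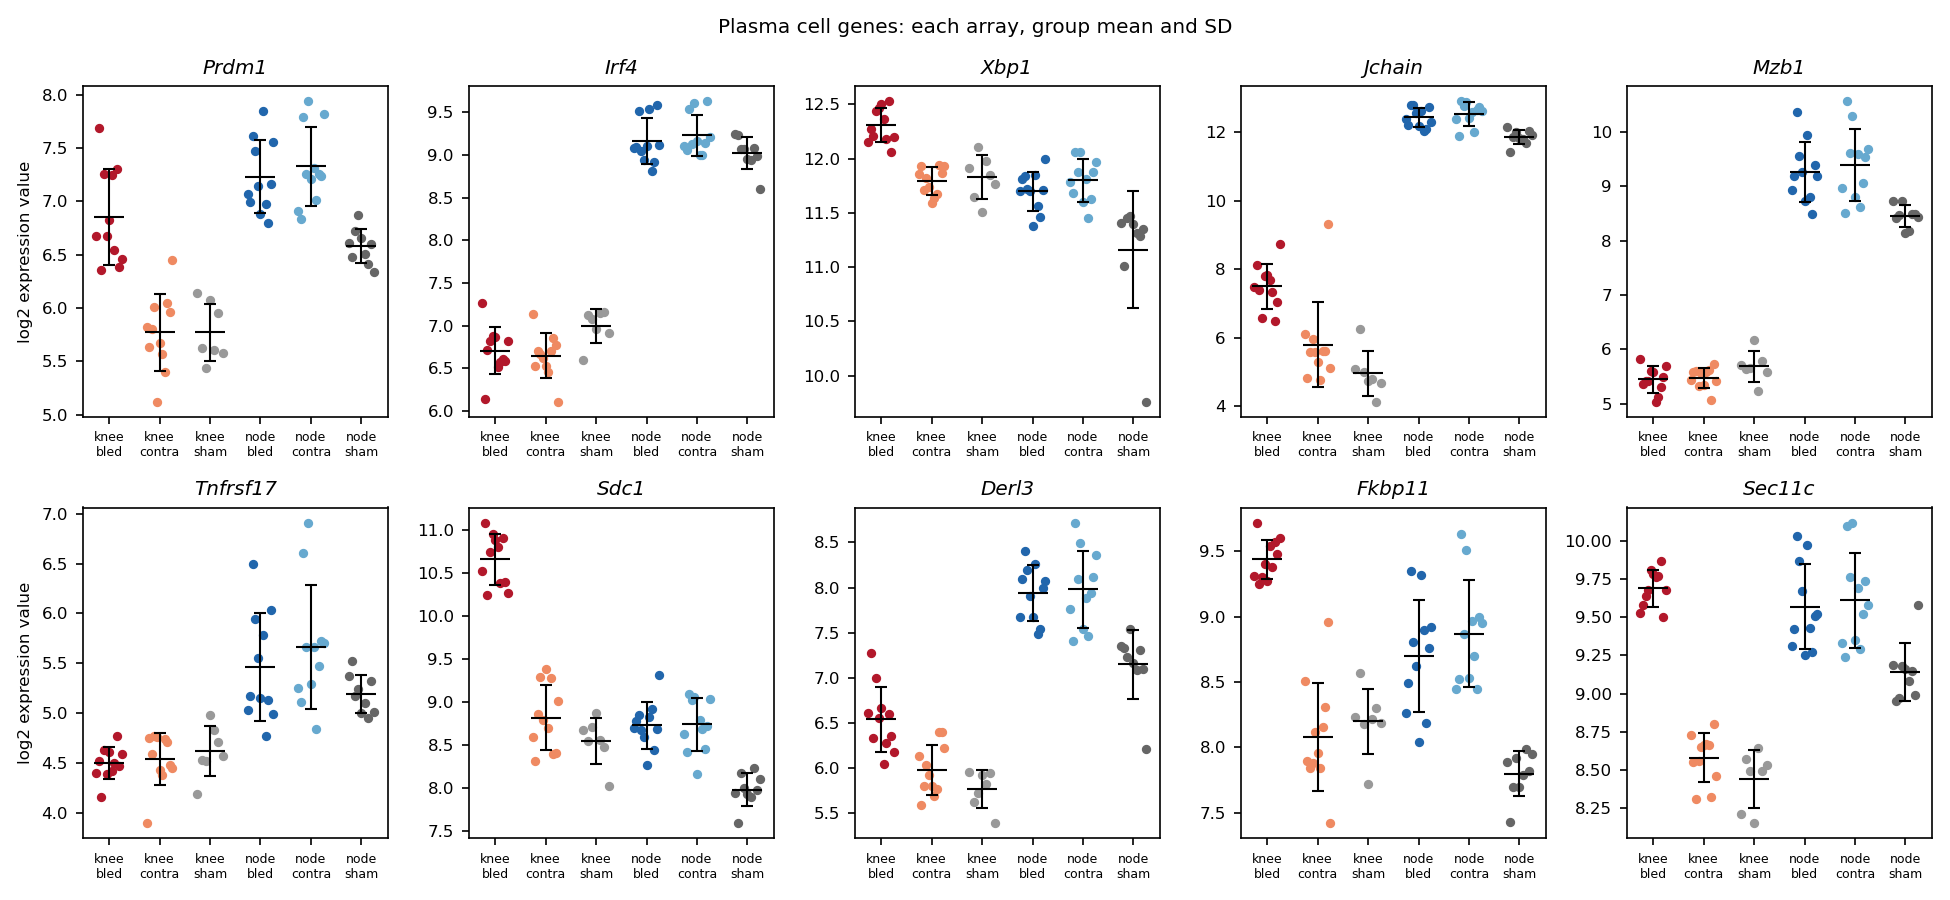
Log2 expression value (y axis) of the 10 plasma cell genes in each of the 60 arrays, by tissue and group (x axis: bled, contralateral and sham); points are arrays, and bars give the group mean and SD. In the knee, Sdc1, Fkbp11, Sec11c and Xbp1 of the bled side lie above every contralateral value, while in the node the bled and contralateral sides overlap for all 10 genes.

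In the bled knee 7 of the 10 genes stood higher than in the contralateral knee, none was lower, and 3 did not pass the test (Irf4, Mzb1 and Tnfrsf17). Over all probe sets 19.5% were higher in that comparison, and 26.9% with 1 probe set per gene. Against sham knees the same 7 genes were higher, against a background of 19.9%, or 28.3% with 1 probe set per gene. The median difference of the 10 genes was 0.82 between bled and contralateral knees, beside 0.00 for the 18166 genes of the array. The bled and contralateral ranges did not overlap for 4 genes (Sdc1, Fkbp11, Sec11c and Xbp1). The bled and sham ranges did not overlap for 6 (Prdm1, Jchain, Sdc1, Derl3, Fkbp11 and Sec11c). The share of all probe sets with ranges apart was not computed, so whether 4 and 6 of 10 genes are unusual cannot be told.

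Of the 3 transcription factors, Prdm1 ranged from 6.36 to 7.69 (median 6.67) in bled knees, from 5.12 to 6.45 (median 5.80) in contralateral knees and from 5.44 to 6.14 (median 5.62) in sham knees. Its bled values lay above every sham value and overlapped the contralateral ones at their upper end, and the bled knee was higher in 11 of 11 rats. The difference from the contralateral knee was 1.08 ± 0.15 (SE), or 2.12-fold (adjusted p = 7.82e-07), and from sham it was also 1.08 ± 0.18 (adjusted p = 7.06e-06). Xbp1, bright in every knee, ranged from 12.06 to 12.53 (median 12.27) in bled, from 11.59 to 11.94 (median 11.82) in contralateral and from 11.51 to 12.11 (median 11.85) in sham knees. It rose by 0.52 ± 0.07 over the contralateral knee, or 1.43-fold (adjusted p = 4.36e-07), with the bled side higher in 11 of 11 rats. Irf4 did not share in this. It ranged from 6.14 to 7.27 (median 6.72) in bled, from 6.11 to 7.14 (median 6.67) in contralateral and from 6.60 to 7.16 (median 7.08) in sham knees. Its difference between the sides was 0.06, with a 95% interval of -0.15 to 0.28, and its difference from sham was -0.29 ± 0.12 (adjusted p = 0.0623). That difference passed the threshold when bled knee K1, contralateral knee K1 or K11, or sham knee C1 was left out.

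Jchain gave the widest spread. Bled knees ranged from 6.47 to 8.75 (median 7.48), contralateral knees from 4.77 to 9.32 (median 5.59) and sham knees from 4.12 to 6.25 (median 4.80). Every bled knee exceeded every sham knee, and the bled side was higher in 10 of 11 rats. The exception was K10, whose contralateral knee, at 9.32, stood above all bled knees, while the other 10 contralateral knees ended at 6.09. The difference between the sides was 1.70 ± 0.37 (SE), or 3.26-fold (adjusted p = 3.86e-04), and without that array it was 2.06, or 4.16-fold (adjusted p = 3.34e-08). Against sham the bled knee was higher by 2.54 ± 0.42, or 5.83-fold (adjusted p = 1e-05). Most contralateral and sham values lay below the array's median, so these folds start from dim signal. The highest bled knee stayed below the lowest sham node, at 11.44.

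The contralateral knee of K10 also stood above the other 10 contralateral knees in Fkbp11 (8.96, others up to 8.51), Sec11c (8.80, others up to 8.73) and Mzb1 (5.74, others up to 5.62), and within their range in Sdc1, Prdm1, Irf4, Xbp1, Derl3 and Tnfrsf17. Its means of other lists were likewise above all the others for neutrophil markers (7.67, others 5.84 to 6.35), cell cycle genes (8.01, others 5.94 to 6.49), erythroid markers (8.01, others 6.52 to 7.37) and T cell markers (6.73, others 5.94 to 6.33). Its B cell identity genes, at 7.18, lay within the range of the others, 6.87 to 7.27. The immunoglobulin symbols Ighl14 (10.06, others 4.60 to 8.30) and Igkv2-112l2 (6.50, others 3.24 to 4.25), which were singled out after their values were seen, were above the others too. The annotation's immunoglobulin symbols were mixed as a list. Iglc1, Igll1, Ighl5 and Igkvl12 were also above. Igh-6-ps1 (3.78, others 4.07 to 5.17) and Ighvl1 (5.82, others 6.15 to 6.76) were below. The remaining symbols lay within the range of the others. The part these cell types have in the Jchain value was not tested.

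Mzb1 and Tnfrsf17 did not pass the test in the knee. Mzb1 ranged from 5.04 to 5.83 (median 5.43) in bled, from 5.08 to 5.74 (median 5.57) in contralateral and from 5.23 to 6.18 (median 5.66) in sham knees. The 3 ranges overlapped almost wholly, and the difference between the sides was -0.04, with a 95% interval of -0.23 to 0.16. For Tnfrsf17 it was -0.05, with an interval of -0.24 to 0.15. Both probe sets are dim in the knee. Between sham node and sham knee Tnfrsf17 differed by 0.57 and Mzb1 by 2.76, where Jchain differed by 6.92. The rise of Jchain is therefore no measure of what these 2 probe sets could show. Against sham, Mzb1 differed by -0.24 ± 0.11 (adjusted p = 0.085), and it passed without bled knee K1 or without sham knee C6.

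Sdc1, the proteoglycan, ranged from 10.25 to 11.09 (median 10.75) in bled knees, from 8.31 to 9.38 (median 8.79) in contralateral knees and from 8.02 to 8.87 (median 8.56) in sham knees. The bled values stood clear of both other groups, and each of the 11 rats was higher on its bled side, by 1.11 to 2.78. The difference was 1.84 ± 0.13 (SE), or 3.58-fold (adjusted p = 1.29e-12), and 2.11 ± 0.15 against sham, or 4.31-fold (adjusted p = 1.62e-12). In contrast to Jchain, Mzb1 and Irf4, the sham knee already had more Sdc1 signal than the sham node. Of 10 epithelial markers, 8 averaged below every array median in the bled knees, and the mean of the list was 5.20 (range 5.07 to 5.51) in bled, 5.04 (4.92 to 5.14) in contralateral and 5.05 (4.95 to 5.23) in sham knees. In that list Cldn4 (1.08 ± 0.21) and Cdh1 (0.96 ± 0.10), a tight junction protein and a cadherin, rose on the bled side and Krt19 fell by 0.25 ± 0.10. Other syndecans did not follow Sdc1 as a family, since Sdc4 rose by 1.31 ± 0.10 (adjusted p = 2.64e-12) and Sdc2 fell by 1.07 (adjusted p = 4.16e-12).

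The 3 genes of the secretory machinery all rose. Fkbp11 ranged from 9.25 to 9.72 (median 9.40) in bled, from 7.42 to 8.96 (median 7.96) in contralateral and from 7.72 to 8.57 (median 8.22) in sham knees, with no overlap of the bled knees with either. It was higher by 1.36 ± 0.12 (SE), or 2.56-fold (adjusted p = 1.12e-10), in 11 of 11 rats. Sec11c ranged from 9.50 to 9.87 (median 9.68) in bled, from 8.31 to 8.80 (median 8.65) in contralateral and from 8.15 to 8.64 (median 8.49) in sham knees, again with the bled group apart. It rose by 1.11 ± 0.07, or 2.16-fold (adjusted p = 3.31e-14). Derl3 ranged from 6.05 to 7.28 (median 6.56) in bled, from 5.59 to 6.40 (median 5.92) in contralateral and from 5.39 to 5.96 (median 5.83) in sham knees. It rose by 0.56 ± 0.12, or 1.47-fold (adjusted p = 4.59e-04), with the bled side higher in 9 of 11 rats.

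Many markers of other cells moved in the same knees. Between bled and contralateral knees the mean of 14 neutrophil markers was 7.80 (range 6.96 to 9.02) against 6.26 (5.84 to 7.67), and 10 of them rose and 2 fell, led by S100a8 at 3.78 ± 0.40. Among the 14 T cell markers the count was 13 higher and 1 lower, list means being 7.38 (7.09 to 7.67) against 6.18 (5.94 to 6.73), and Cd2 rose most, by 3.54 ± 0.22. Monocyte and macrophage genes were higher in 9 cases of 15 and lower in 4, with means of 10.71 (10.41 to 10.90) against 10.21 (10 to 10.52), Itgam rising by 2.33 ± 0.11 and Vsig4 falling by 2.13 ± 0.19. Of 9 dendritic cell markers 6 rose and 3 fell, and all 17 cell cycle genes rose. All 15 adipocyte genes fell, with means of 8.60 (7.93 to 9.28) against 10.98 (10.66 to 11.25), and 10 of 14 fibroblast and lining genes fell and 1 rose. The part of these shifts in the values of the 10 genes was not tested. With the mean of 12 skeletal muscle genes as a covariate, the Sdc1 difference was 1.84 and the Jchain difference 1.86.

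Antibody genes and B cell genes were counted in the same knees. Of the 2 immunoglobulin genes on the list, neither passed between the sides, with Iglc1 at 0.07 ± 0.13 (adjusted p = 0.777). Among all 16 immunoglobulin symbols of the annotation, a set added after the files were seen, none rose between the sides and 1, Igh-6l1, fell by 0.22 (adjusted p = 0.023), and 11 averaged below every array median in bled knees. Against sham knees 1 of the 16 was higher, Ighl14 by 1.43 (adjusted p = 0.0449), and 2 were lower, Igh-6l1 at -0.39 (adjusted p = 3.75e-04) and Igll1 at -0.28 (adjusted p = 0.0375). Of 17 B cell identity genes 7 rose and 3 fell, where 15.2% of all probe sets were lower, and the median difference was 0.23. The 3 that rose most were Irf8 (1.76 ± 0.13), Ciita (1.71 ± 0.19) and Spib (1.64 ± 0.15), which myeloid or dendritic cells also use. The B cell surface genes Ms4a1 and Cd79a, picked after their values were seen, differed by 0.19 (adjusted p = 0.429) and 0.16 (adjusted p = 0.333). They are among the 7 genes of the list that passed in neither direction, and they do not stand for the whole list.

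Genes of the wider secretory program rose with the members in the bled knee. Of 20 translocon and signal peptidase genes, the machinery in which Sec11c works, 18 rose and none fell, with a median of 0.55. Sec61g (1.24 ± 0.12) and Sec61b (1.21 ± 0.12), subunits of the channel through which new proteins enter the endoplasmic reticulum, and the signal peptidase subunit Spcs3 (1.00 ± 0.09) led that list. Sec11a, the catalytic alternative to Sec11c, rose by 0.54 (adjusted p = 1.12e-09). Of 21 other genes of plasma cell transcription and secretion 15 rose and 2 fell, with a median of 0.57, led by Creld2 (1.74 ± 0.17), Ckap4 (1.45 ± 0.11) and Sdf2l1 (1.35 ± 0.14). Of 25 endoplasmic reticulum stress and folding genes 14 rose and 2 fell, with Dnajb11 at 1.23 ± 0.07, Ero1a at 1.13 ± 0.12 and Hyou1 at 1.12 ± 0.09. Of 24 genes of plasma cell survival and homing 12 rose and 4 fell. The cytokine Il6 rose by 5.75 ± 0.19, Cd80 by 2.79 ± 0.12 and the chemokine receptor Cxcr4 by 2.38 ± 0.15. Its ligand Cxcl12 fell by 1.82 (adjusted p = 6.87e-15). The medians of these lists stand beside 0.00 for all genes.

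The contralateral knee did not differ from the sham knee in any of the 10 genes by limma, where 1.82% of all probe sets passed in either direction. Irf4 alone had an unadjusted p under 0.05, at -0.35 ± 0.12 (adjusted p = 0.135). The difference of Jchain was 0.84, with a 95% interval of -0.02 to 1.71, and without the contralateral knee of K10 it was 0.49. For Prdm1 the interval was -0.36 to 0.36 and for Xbp1 -0.20 to 0.13.

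**Figure D2:**
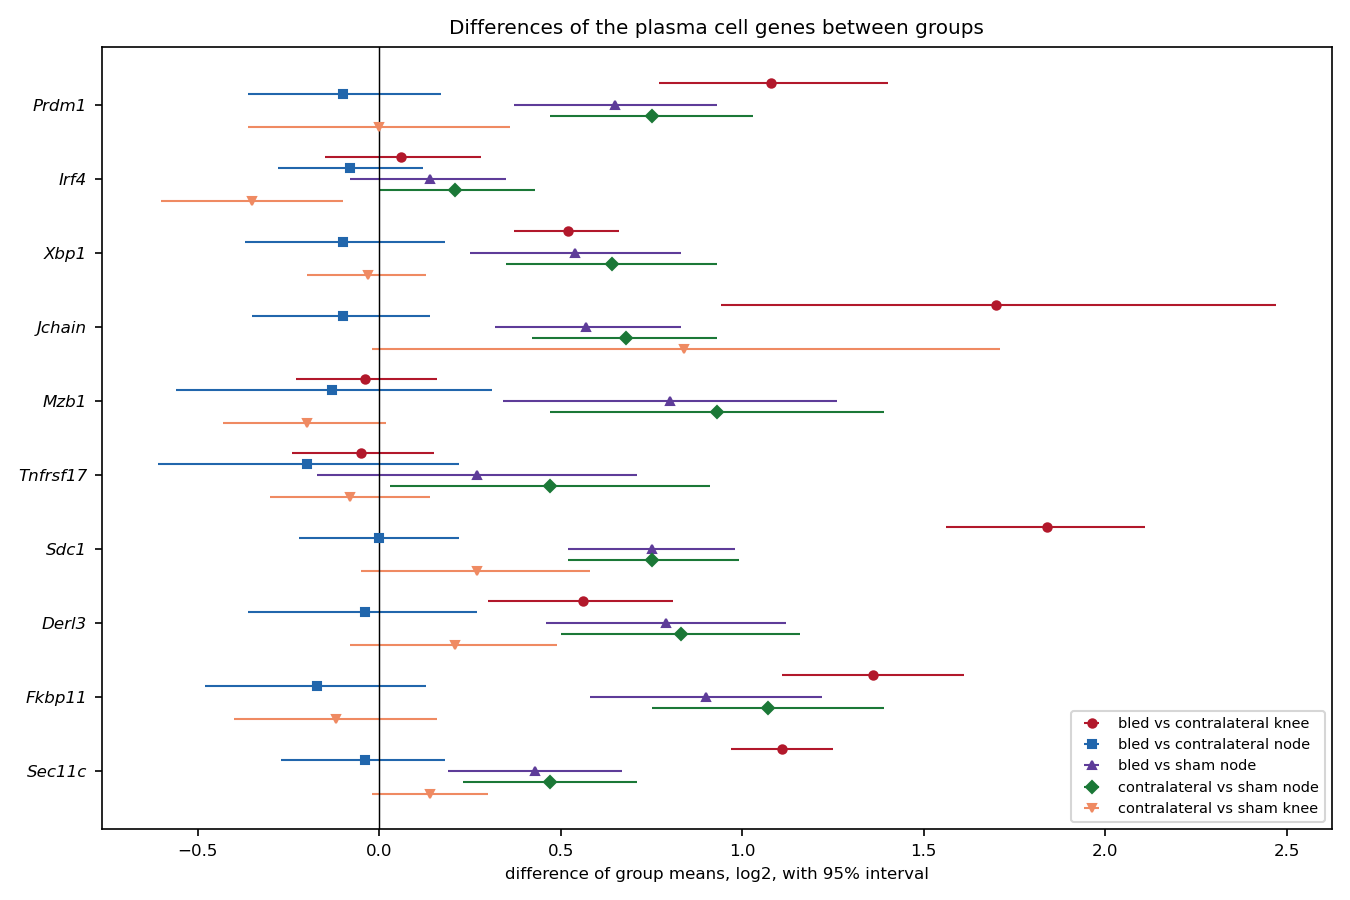
Difference of group means on the log2 scale (x axis) with its 95% interval for each of the 10 genes (y axis) in 5 comparisons, each shown by its own colour and symbol. The contrast of bled with contralateral knees reaches 1.84 for Sdc1, the contrast of the nodes of the same rats stays between -0.20 and 0.00, and both node groups of bled rats give positive differences from sham for every gene.

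In the popliteal nodes no gene differed between the sides by the test. By limma 0 of the 10 genes passed between bled-side and contralateral nodes, and 0 of the 36685 probe sets did (0%), with adjusted p = 1.00 for each gene. None of the 10 had an unadjusted p under 0.05, whereas 860 probe sets did, and no probe set passed under any alternative setting. The differences ran from -0.20 for Tnfrsf17 to 0.00 for Sdc1. The bled-side node was the higher of the pair in 2 of 11 rats for Irf4 and Fkbp11, the fewest, and in 6 for Sdc1, the most. The main fit and its intervals did not pair both nodes of a rat, whose values had a median r of 0.66 over the 10 genes. The alternative with the rat as a block took up only part of that pairing. The intervals were narrow enough to leave out a change of the size seen in the knee, at -0.35 to 0.14 for Jchain, -0.22 to 0.22 for Sdc1 and -0.27 to 0.18 for Sec11c.

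Both nodes of the bled rats, on the other hand, stood above the nodes of sham rats. For the bled side 8 of 10 genes were higher and none lower, where 1.91% of all probe sets were higher. For the contralateral side the same 8 were higher, where 2.22% were. With 1 probe set per gene these shares were 3.85% and 4.92%. Irf4 and Tnfrsf17 did not pass on either side. Leaving out each array in turn gave 5 to 8 genes for the bled side, the 5 without sham node C2, and 8 each time for the contralateral side. The medians of the 10 differences were 0.61 and 0.71, beside 0.00 and -0.01 for all genes. Both comparisons use the same 9 sham nodes, so they are not independent of each other.

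Fkbp11, the prolyl isomerase, ranged from 8.04 to 9.35 (median 8.76) on the bled side, from 8.45 to 9.63 (median 8.87) on the contralateral side and from 7.43 to 7.99 (median 7.82) in sham nodes. Every node of a bled rat exceeded every sham node. The differences were 0.90 ± 0.16 (SE), or 1.86-fold (adjusted p = 0.0021), and 1.07 ± 0.16, or 2.10-fold (adjusted p = 3.95e-04).

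Sdc1 ranged from 8.27 to 9.31 (median 8.70), from 8.16 to 9.09 (median 8.72) and from 7.59 to 8.23 (median 7.98) in the same order. The bled-side nodes stood clear of sham and a single contralateral node fell within the sham range, and both differences were 0.75 ± 0.11, or 1.68-fold (adjusted p = 8.70e-04 and 4.61e-04). Derl3 ranged from 7.49 to 8.41 (median 7.99), from 7.41 to 8.72 (median 7.94) and from 6.21 to 7.54 (median 7.23). It was higher by 0.79 ± 0.16 and 0.83 ± 0.16 (adjusted p = 0.00578 and 0.00367), with sham rat C9 far below the other sham nodes. Sec11c was higher by 0.43 ± 0.12 and 0.47 ± 0.12 (adjusted p = 0.0318 and 0.0173), and the first was lost without any of 6 arrays (bled-side nodes K3, K4 and K7, sham nodes C2, C3 and C8).

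Mzb1 ranged from 8.48 to 10.36 (median 9.19) on the bled side, from 8.50 to 10.56 (median 9.53) on the contralateral side and from 8.14 to 8.73 (median 8.47) in sham nodes. The nodes of bled rats spread widely and reached down into the narrow sham range. The differences were 0.80 ± 0.22, or 1.74-fold (adjusted p = 0.0365), and 0.93 ± 0.22, or 1.91-fold (adjusted p = 0.0148). The first no longer passed when any of 9 arrays was left out (bled-side nodes K3, K4, K7 and K11, sham nodes C2, C5, C6, C7 and C8), K3 moving it most, to 0.69. Jchain, bright in every node, went from 11.44 to 12.17 (median 11.87) in sham nodes to 12.03 to 12.80 (median 12.40) on the bled side and 11.90 to 12.92 (median 12.63) on the contralateral side, with some overlap. It was higher by 0.57 ± 0.12 and 0.68 ± 0.12, or 1.49-fold and 1.60-fold (adjusted p = 0.00869 and 0.00263).

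Prdm1 ranged from 6.80 to 7.85 (median 7.14), from 6.83 to 7.94 (median 7.26) and from 6.34 to 6.87 (median 6.60) in bled-side, contralateral and sham nodes. Only the lowest nodes of bled rats met the top of the sham range, and the differences were 0.65 ± 0.14 and 0.75 ± 0.14 (adjusted p = 0.00707 and 0.00232). Xbp1 was higher by 0.54 ± 0.14 and 0.64 ± 0.14 (adjusted p = 0.0268 and 0.00966), but its sham mean was pulled by rat C9, at 9.76 where the other 8 sham nodes began at 11.01. Without C9 the differences were 0.37 and 0.46 (adjusted p = 0.00959 and 0.00192), and the bled-side call was lost without bled-side node K11 or sham node C2. Irf4 was 9.16 ± 0.27 (SD, n = 11), 9.23 ± 0.24 (n = 11) and 9.02 ± 0.19 (n = 9), with differences of 0.14 ± 0.10 and 0.21 ± 0.10 (SE, adjusted p = 0.504 and 0.247). Tnfrsf17 was 5.46 ± 0.54, 5.66 ± 0.62 and 5.19 ± 0.19 (SD), with differences of 0.27 ± 0.21 and 0.47 ± 0.21 (SE, adjusted p = 0.523 and 0.212).

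B cell genes did not rise in these nodes. Of 17 B cell identity genes none was higher and 3 were lower than sham on each side (Bach2, Ciita and Cd72). The other 14 passed in neither direction. Over all probe sets 2.34% were lower on the bled side and 2.81% on the contralateral side. The list mean was 10.61 (range 10.36 to 10.86) and 10.62 (10.44 to 10.84) in the nodes of bled rats against 10.74 (10.32 to 10.90) in sham. Bach2, a repressor that holds B cells back from becoming plasma cells, was picked after its value was seen. It was lower by 0.44 on the bled side (adjusted p = 0.00571) and by 0.37 on the contralateral side (adjusted p = 0.017). Of the 21 other genes of plasma cell transcription and secretion 10 and 11 were higher and none was lower, among them Tent5c at 0.96 and 1.09 (adjusted p = 0.00708 and 0.00271), which in mouse plasma cells stabilises immunoglobulin messages. Of 20 translocon and signal peptidase genes 6 and 8 were higher, and of 25 folding genes 9 and 10, with none lower in either. Of the 16 immunoglobulin symbols 1 and 2 were higher, Ighl14 by 1.22 on both sides (adjusted p = 0.0364 and 0.0346) and Igkvl3 by 1.19 on the contralateral side (adjusted p = 0.0435).

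Other tissue components moved with the node difference. The mean of 15 adipocyte genes was 8.02 (range 6.92 to 8.72) in bled-side, 8.27 (8.01 to 8.68) in contralateral and 7.55 (6.94 to 8.51) in sham nodes, and 3 and 7 of these genes were higher than sham. With that mean as a covariate, 4 and 2 of the 10 genes still passed. The differences themselves stayed close, for example 0.83 and 0.97 for Mzb1 and 0.88 and 1.04 for Fkbp11, while over all probe sets those higher fell from 701 to 159 and from 813 to 26. Sdc1 (adjusted p = 0.00726 and 0.0336) and Fkbp11 (0.0172 and 0.0336) passed on both sides. Monocyte and macrophage markers averaged 10.11 (9.77 to 10.58) and 10.13 (9.74 to 10.48) against 9.68 (9.21 to 9.91), with 5 of 15 higher on each side, and their part in the result was not tested. Fibroblast and synovial lining genes averaged 8.76 (8.56 to 9.10) and 8.91 (8.73 to 9.12) against 8.59 (8.34 to 8.76), with 2 and 5 of 14 higher and none lower, and their part was not tested either. T cell markers averaged 9.84 (9.37 to 10.07) and 9.79 (9.40 to 10.01) against 9.92 (9.61 to 10.17), with none higher and 1 lower on the contralateral side, Lat at -0.33 (adjusted p = 0.0268).

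The knee and node differences were compared directly in a model of all 60 arrays. The bled minus contralateral difference was larger in knee than in node for 7 genes, where 15.5% of all probe sets were higher in that sense. With 1 probe set per gene 23.3% were, and 25.6% for the bled minus sham difference. The excess of the bled minus contralateral difference in knee was 1.84 ± 0.18 (SE) for Sdc1, 1.81 ± 0.40 for Jchain and 1.53 ± 0.20 for Fkbp11. It was 1.18 ± 0.20 for Prdm1, 1.15 ± 0.13 for Sec11c, 0.61 ± 0.16 for Xbp1 and 0.60 ± 0.20 for Derl3. The bled minus sham difference was larger in knee for 3 genes (Jchain, Sdc1 and Sec11c, background 18%) and smaller for 2 (Mzb1 at -1.04 ± 0.26 and Irf4 at -0.42 ± 0.16, background 13.2%). For Xbp1, Derl3, Fkbp11 and Prdm1 that difference between the tissues did not pass, at -0.06, -0.02, 0.34 and 0.43. The contralateral minus sham difference was smaller in knee for 4 genes (background 0.891%): Fkbp11 at -1.19 ± 0.22, Mzb1 at -1.13 ± 0.26, Xbp1 at -0.67 ± 0.17 and Irf4 at -0.57 ± 0.16. Prdm1, at -0.75 ± 0.22, missed the threshold (adjusted p = 0.0603) and passed it with the rat as a replicate block (adjusted p = 0.0482). The Irf4 call was lost in 22 of 60 fits that each left out 1 array, centred on array medians (adjusted p = 0.067), with array weights (0.068) and without the 3 sham arrays that stand apart (0.0956). With array weights 2 of these 4 remained (Fkbp11 and Xbp1), and leaving out each array in turn gave 3 to 5 genes.

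Many pairs of the 10 genes were correlated over the rats within a group of nodes, and few within a group of knees. Pearson and Spearman correlations with permutation tests (two-sided, 100000 permutations) were computed for all 45 pairs of genes in each of 4 groups of 11 rats and for both sides of a rat, 200 in all, with Benjamini-Hochberg adjustment over the 200. Genes measured on 1 array share its RNA and its hybridisation. In contralateral nodes 39 of 45 pairs were positively correlated at an adjusted p under 0.05, with a median r of 0.82 (range 0.44 to 0.97), and in bled-side nodes 23 of 45, with a median of 0.69 (range -0.05 to 0.93). In bled knees 4 pairs were positive and 1 negative (median r 0.02), and in contralateral knees 3 were positive (median r -0.03).

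The tightest pair in the nodes was Mzb1 with Sec11c, the chaperone and the signal peptidase subunit. In contralateral nodes r was 0.97 and rho 0.92 (adjusted permutation p = 8.00e-04 and 0.00415), and r was 0.95 without the 2 rats farthest from the median of Mzb1. In bled-side nodes r was 0.93 and rho 0.91 (adjusted permutation p = 8.00e-04 and 0.0045), and 0.85 without the 2 farthest. Mzb1 with Jchain gave r = 0.88 and rho = 0.89 in contralateral nodes (adjusted permutation p = 0.00463 and 0.00537) and 0.83 and 0.91 in bled-side nodes (0.008 and 0.0045), and r was 0.87 and 0.78 without the 2 farthest. Sdc1 was the loosest member on the bled side, at r = 0.09 with Jchain (adjusted permutation p = 0.871) and r = -0.05 with Tnfrsf17 (adjusted permutation p = 0.922). As a description of the same nodes, the median r among the 17 B cell identity genes was 0.48 in contralateral and 0.62 in bled-side nodes, that among the 14 T cell markers 0.61 and 0.67, and that among the 21 other genes of plasma cell transcription and secretion 0.65 and 0.50. Whether the 10 genes differ from these lists was not tested.

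The same rats were high or low for many of the genes. Rat K3 was among the 3 highest for 10 of 10 genes in both its nodes. Rat K5 was among the 3 highest for 10 of 10 genes in its contralateral node and for 0 of 10 in its bled-side node. At the other end, K9 was among the 3 lowest for 9 genes in the bled-side node, and K2 for 9 and K8 for 8 genes in the contralateral node. In Mzb1, K3 had 10.36 and 10.56 on its bled and contralateral sides.

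**Figure D3:**
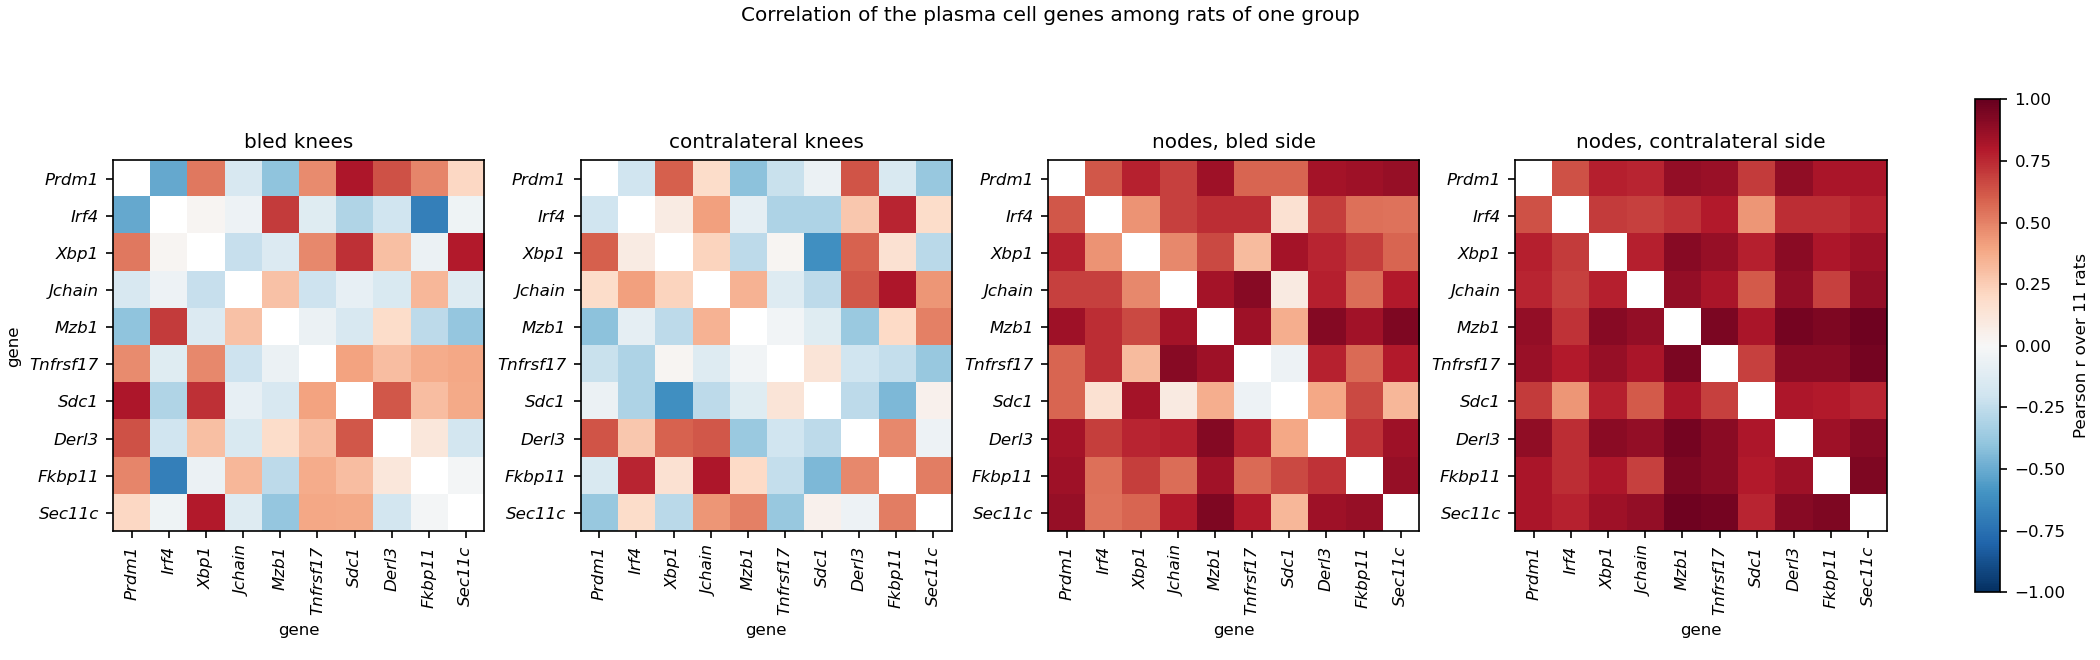
Pearson r over 11 rats between each pair of the 10 genes (both axes list the genes; colour runs from -1, blue, to 1, red) in bled knees, contralateral knees, bled-side nodes and contralateral nodes. Both knee panels are mixed, with medians of 0.02 and -0.03, and both node panels are mostly red, with medians of 0.69 and 0.82.

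Both nodes of a rat were compared next. The r between both nodes of a rat had a median of 0.66 over the 10 genes and passed for 3. It was 0.74 for Sec11c (rho 0.73, adjusted permutation p = 0.0362 and 0.044, r = 0.69 without the 2 farthest rats), 0.72 for Jchain (rho 0.70, adjusted permutation p = 0.0362 and 0.0585, r = 0.63) and 0.72 for Mzb1 (rho 0.63, adjusted permutation p = 0.0398 and 0.105, r = 0.55). In the knees no gene passed by Pearson's r, with a median of -0.16 between the sides of a rat. Jchain there gave a rho of -0.73 (adjusted permutation p = 0.0441) but an r of -0.41 (adjusted permutation p = 0.377), and r was -0.53 without the 2 farthest rats.

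**Figure D4:**
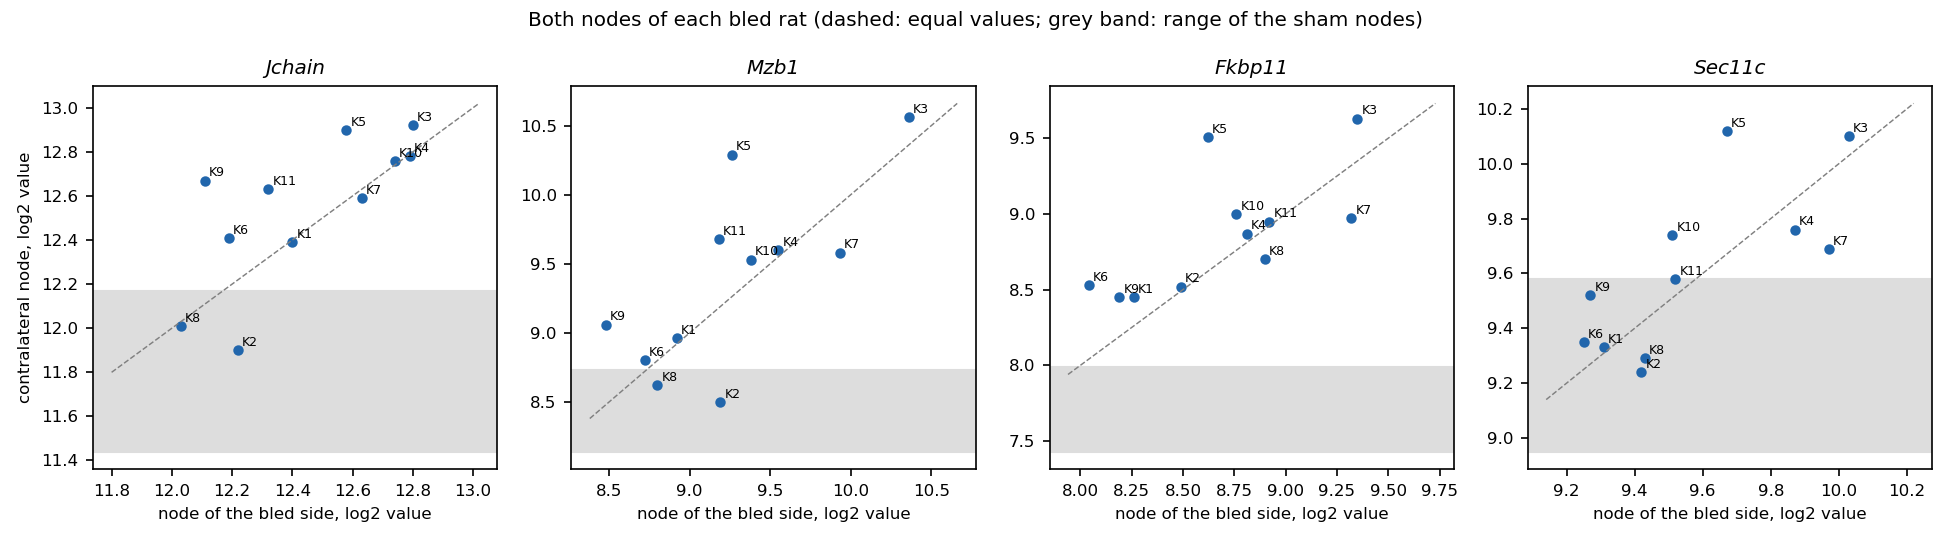
Log2 value of Jchain, Mzb1, Fkbp11 and Sec11c in the bled-side node (x axis) and the contralateral node (y axis) of each of the 11 bled rats; the dashed line marks equal values and the grey band the range of the 9 sham nodes on the y axis. K3 is high in both nodes, K5 in the contralateral node, and every Fkbp11 value lies above the sham band, which ends at 7.99.

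In bled knees Prdm1 went with Sdc1 (r = 0.81 and rho = 0.82, adjusted permutation p = 0.0188 and 0.0156, r = 0.70 without the 2 farthest rats), and rat K2 was highest in both, at 7.69 and 11.09. Xbp1 went with Sec11c (r = 0.79 and rho = 0.79, adjusted permutation p = 0.0213 and 0.0219, r = 0.68 without the 2 farthest). Irf4 went with Mzb1 (r = 0.70 and rho = 0.82, adjusted permutation p = 0.0488 and 0.0147, r = 0.82 without the 2 farthest). Xbp1 with Sdc1 gave r = 0.73 and rho = 0.65 (adjusted permutation p = 0.043 and 0.0886, r = 0.68 without the 2 farthest). The negative pair was Irf4 with Fkbp11 (r = -0.68 and rho = -0.51, adjusted permutation p = 0.0497 and 0.223, r = -0.42 without the 2 farthest). Jchain passed with none of the other 9 there. In contralateral knees Jchain went with Fkbp11 (r = 0.81 and rho = 0.71, adjusted permutation p = 0.0165 and 0.0531), which fell to r = 0.60 without the 2 farthest rats, K10 being highest in both genes. Irf4 and Fkbp11 were positively correlated on that side (r = 0.76 and rho = 0.75, adjusted permutation p = 0.0357 and 0.0333, r = 0.62 without the 2 farthest), and the difference from the bled side was not tested. Jchain with Derl3 gave r = 0.62 and rho = 0.60 (adjusted permutation p = 0.0439 and 0.125, r = 0.41 without the 2 farthest).

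The genes most like Jchain over all arrays of a tissue differed between the tissues. Over the 31 node arrays, among 9081 genes brighter than the median, the 5 with the highest Pearson r were Tent5c (0.90), Mzb1 (0.89), Bhlhe41 (0.87), Herpud1 (0.86) and Sec11c (0.86). Prdm1, Fkbp11, Derl3, Sdc1, Xbp1 and Irf4 stood at places 7, 11, 13, 27, 71 and 121. Over the 29 knee arrays, among 9083 genes, the 5 highest were H1f5 (0.89), Runx2 (0.87), Runx1 (0.86), Pcsk5 (0.86) and H2ac4 (0.86). These are a linker histone, 2 Runt factors, a proprotein convertase and a core histone. Fkbp11 was at place 36 in the knee (r = 0.83), Sec11c at 511, Sdc1 at 1615 and Xbp1 at 2472. Prdm1, Irf4, Mzb1, Derl3 and Tnfrsf17 were too dim in the knee to be ranked, and Tnfrsf17 in the node as well. Jchain itself was exempt from this brightness filter, and in the knee it would not have passed. These correlations run over arrays of all 3 groups and so contain the group differences.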

How the data were processed

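RNA of knee tissue and popliteal nodes was hybridised to 60 Affymetrix rat arrays, 29 of knees and 31 of nodes, 1 per sample. The values deposited are log2 expression values; the submitters' processing notes name RMA and, for the software, Affymetrix Expression Console (version 1.4.46). Whether both tissues were normalized together, and hybridisation dates, are not given in the sources used here, so levels set across tissues rest on that scaling. RMA pulls arrays to one distribution, so a change in total RNA per sample is not visible. Precision rests on the number of arrays, 7 to 11 per group.

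Symbols came from the array annotation (18511 of 36685 probe sets with 1 symbol, 575 with several). Each gene was represented by its brightest single-symbol probe set. The members, lists, groups and tests were chosen with earlier results of these data known. Named genes were all members, the 3 largest called changes of each other list between the sides of a tissue (or the single largest change where none was called), and the 5 genes per tissue most like Jchain. Sdc2, Sec11a, Cxcl12, Bach2, Cd72, Ms4a1, Cd79a, Lat and the immunoglobulin symbols other than Iglc1 were picked after their values were seen.

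Group means were fitted per tissue with limma 3.58.1 in R 4.3.3 with the package data.table, version 1.17.8, with moderated statistics and Benjamini-Hochberg adjustment over all probe sets, called at an adjusted p under 0.05. A model of 6 groups gave the differences between tissues. Python 3.11.15, numpy 2.4.6, pandas 2.3.3, scipy 1.17.1 and matplotlib 3.10.9 did the rest. Tested on simulated data, the fit recovered 93.5% of 200 probe sets changed by 1 log2 unit between bled and contralateral knees, and 97.5% in nodes. Per the labels, a rat number marks one animal. Deviations from the group means of both sides of a rat correlated at -0.104 to 0.211 in knees and 0.121 to 0.324 in nodes. The rat was therefore a block in an alternative fit. Other alternatives were quantile normalization, median centring, a filter on dim probe sets, trend and robust moderation, array weights, 1 probe set per gene, only the groups compared, leaving out 3 sham arrays (knee C5, nodes C2 and C9), muscle or adipocyte means as covariates, and leaving out each array in turn.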

Additional observations from a re-analysis of the deposited data

Results flagged for a closer look

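In the 9 sham nodes rat C9 stood apart from the others by Dixon's test in 4 of the 10 genes. It was low in Xbp1 (9.76, others 11.01 to 11.47), Derl3 (6.21, others 7.09 to 7.54) and Irf4 (8.60, others 8.94 to 9.25), and high in Sec11c (9.58, others 8.95 to 9.19). Among 20 groups tested, chance flags about 1 in 20, and the 4 come from the same array and are not independent. These 20 do not take in every gene in every group. The Jchain value of contralateral knee K10 (9.32, others up to 6.09) is not among the flags, though it also stood apart.

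The difference between groups was itself different in knee and node for 16 values, tested as contrasts of contrasts with limma. The bled minus contralateral difference was greater in knee by 1.84 for Sdc1, 1.81 for Jchain, 1.53 for Fkbp11, 1.18 for Prdm1, 1.15 for Sec11c, 0.61 for Xbp1 and 0.60 for Derl3, all on the log2 scale. The bled minus sham difference was greater in knee by 1.97 for Jchain, 1.36 for Sdc1 and 0.82 for Sec11c, and knee minus node was -1.04 for Mzb1 and -0.42 for Irf4. For contralateral minus sham, knee minus node was -1.19 for Fkbp11, -1.13 for Mzb1, -0.67 for Xbp1 and -0.57 for Irf4. These contrasts share arrays and are not independent of each other.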

How the results depend on the processing

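Of 917 recomputed values of single genes, 880 kept their direction and their side of the threshold, 19 lost the call, 6 gained it and 12 changed sign, the last all of uncalled differences near 0. No count of genes in the knee comparisons moved by more than 1.5 times; leaving out each array gave 7 for bled against contralateral and 7 to 9 for bled against sham knees, the added genes being Irf4 and Mzb1, which were lower. Irf4 was also lower there with 1 probe set per gene (adjusted p = 0.0446), with array weights (0.0479) and without dim probe sets (0.039). With the adipocyte mean as a covariate, the genes higher than sham fell from 8 to 4 in bled-side nodes and from 8 to 2 in contralateral nodes; the differences lost in this way stayed between 0.42 and 0.97, and the cause was not tested. With array weights, the genes whose contralateral minus sham difference was smaller in knee fell from 4 to 2. Leaving out each array in turn gave 5 to 8 genes for bled-side against sham nodes, the 5 without sham node C2, and 8 throughout for contralateral against sham nodes. The fit with the rat as replicate block used a single correlation for all probe sets, 0.078 in knees, 0.266 in nodes and 0.044 over both tissues. The 10 genes themselves had a median r of 0.66 between both nodes of a rat, so this fit took up only part of their pairing. In it 1 call changed: Prdm1 gained the knee minus node difference of contralateral against sham, at -0.75 (adjusted p = 0.0482). No other call changed.

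Values that changed sign were those of Prdm1 between contralateral and sham knees (0.02 with array weights, 0.06 centred on array medians, 0.01 with the muscle covariate, 0.05 with quantile normalization and 0.05 without the 3 sham arrays) and of Xbp1 there (0.02 centred). For the knee minus node difference of bled against sham, Xbp1 gave 0.10 with array weights and 0.11 without the sham arrays, and Derl3 gave 0.06 with array weights, 0.01 centred, 0.03 with quantile normalization and 0.11 without the sham arrays. Irf4 in this contrast lost its call when centred (-0.40), with quantile normalization (-0.37) and without the sham arrays (-0.40). No gene had a second probe set to compare. The filter on dim probe sets left 87 of 100 values. Dim probe sets, Tnfrsf17 in both tissues and Mzb1 in knees, limit what a flat value can show. Jchain was dim in most contralateral and sham knees, which limits how exactly its folds over them can be read.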
